A study of Mus musculus with 10 samples.

Results

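The genes described here encode the microtubule motors kinesin and cytoplasmic dynein, their light and intermediate chains, and dynactin, the cofactor of dynein. They were taken by name: protein-coding genes of the mouse assembly GRCm38 whose symbol starts with Kif or Kifc and a digit, Dync1, Dync2, Dynll, Dynlr or Dynlt, or is one of Klc1 to Klc4 or Dctn1 to Dctn6. Of 18453 genes in the count tables, 68 met this rule, which reads names only. The pattern also takes in Kif1bp, which encodes a kinesin-binding protein and not a motor. Kif2b, a further gene whose name fits, was not analysed here.

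RNA-seq libraries of CA3, the hippocampal field whose pyramidal neurons receive the mossy fibres, were compared between 5 scramble and 5 Mef2c shRNA libraries. All came from C57BL/6J mice that received AAV-shRNA(scramble) or AAV-shRNA(mef2c), an adeno-associated virus that carries a scrambled hairpin or a hairpin against the transcription factor gene Mef2c, in CA3 of both hemispheres. The labels give every library as male, whereas the injection protocol mentions both sexes, and they name no age, viral promoter or interval after injection. Whether a library is 1 animal or a pool is not stated, and p-values therefore cover only library-to-library spread, which may be technical.

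Kinesins are ATP-driven motors, most of which walk towards the plus ends of microtubules, and in axons they carry vesicles, mitochondria and cytoskeletal proteins away from the cell body. Cytoplasmic dynein walks the opposite way, returns endosomes and signalling cargo to the cell body, and needs dynactin for long runs. The heavy chains hold the ATPase, while the light and intermediate chains bind cargo and adaptors. Pyramidal neurons such as those of CA3 depend on this traffic along their long axons and dendrites, and several kinesins serve cell division or cilia instead.

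Total counts ranged from 14701928 to 17798090 per library, and each of the 5 knockdown libraries was deeper than each of the 5 scramble libraries, so depth and group cannot be told apart. Levels are given as CPM, read counts scaled to a common library size with TMM factors. Mef2c, the targeted gene, stood at 166, 198, 176, 312 and 175 CPM in scramble libraries 1 to 5 and at 111, 131, 121, 163 and 286 CPM in the libraries labelled knockdown 1 to 5. Its log2 fold change was -0.34 ± 0.30 SE, with an edgeR adjusted p of 0.489. The library labelled knockdown 5 goes against its label: it lay above 4 of the 5 scramble libraries, while the other 4 knockdown libraries lay below all of them. It is counted among the 5 knockdown libraries below by its label alone. The same library and scramble library 4, where Mef2c was highest, also had the highest scores of cortical layer neuron markers, 0.67 and 0.48 against at most 0.15 in the other 8. With the cortical score as a covariate, the Mef2c log2 fold change was -0.25 and passed (edgeR adjusted p = 0.0387). Over all alternatives its adjusted p ranged from 0.0274 (without these 2 libraries) to 0.957 (without knockdown libraries 2, 3 and 4), and with the microglia score as a covariate the value was 0.19. Of 6 CA3 pyramidal markers, 0 passed the test, and their summed level was 304 to 332 CPM in the scramble and 261 to 370.2 CPM in the knockdown libraries. Of 14 microglia markers 7 rose, and their summed level was 438 to 639 CPM in the scramble and 526 to 1164 CPM in the knockdown libraries. Dentate granule, CA1, CA2, cortical, oligodendrocyte, choroid plexus and proliferating cell markers gave 0 calls, interneuron and ependymal markers 1 lower each, and astrocyte and endothelial markers 1 higher each. Choroid plexus markers ranged from 45.6 to 2736 CPM in sum over the 10 libraries, high in knockdown library 1, the library labelled knockdown 5 and scramble libraries 1, 4 and 5. The part of choroid plexus tissue in the results below was not tested, and the fits with the microglia and cortical scores are given with the calls. In bulk tissue fewer cells of a type and less RNA per cell cannot be told apart.

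Of 68 motor genes, 63 passed the filter on low counts and were tested with edgeR's quasi-likelihood test, with Benjamini-Hochberg adjustment over all 14393 genes tested. At an adjusted p under 0.05, 10 of the 63 fell, or 15.9%, beside 7.61% of all genes tested. They were the 3 kinesin-1 heavy chain genes Kif5a, Kif5b and Kif5c, the kinesin-2 gene Kif3a, the kinesin-3 gene Kif1b, the kinesin-4 genes Kif21a and Kif21b, the dynein heavy chain genes Dync1h1 and Dync2h1, and the dynein light intermediate chain gene Dync1li2. None of the 63 rose, beside 4.66% of all genes. At an unadjusted p under 0.05, 8 of the 63 (and 15.3% of all genes) had a higher value. DESeq2 called 1 member higher (Kif1bp), beside 8.27% of all genes, and limma-voom 3 (Dctn3, Dynlrb1 and Kif1bp), beside 10.9%. With the microglia score as a covariate none of the 63 and none of all genes passed edgeR's test. The log2 fold changes of the 10 members stayed negative in that fit, at -0.38 to -0.12 against -0.52 to -0.23 without the covariate. Their SE lay between 0.060 and 0.11 without the covariate and between 0.087 and 0.16 with it. With the cortical score as a covariate the same 10 members and Kif3c and Kif26b fell, beside 10.7% of all genes, and Kifc2 rose, beside 7.8%. Of the members tested, 7 were lower in all 5 knockdown than in all 5 scramble libraries (6.04% of all genes tested were), and 2, Kif1bp and Kifc1, were higher in all 5 (3.3% of all genes). The median log2 fold change was -0.05 over the 63 members and 0.02 over all genes tested, and 37 of the 63 values were negative.

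**Figure D1:**
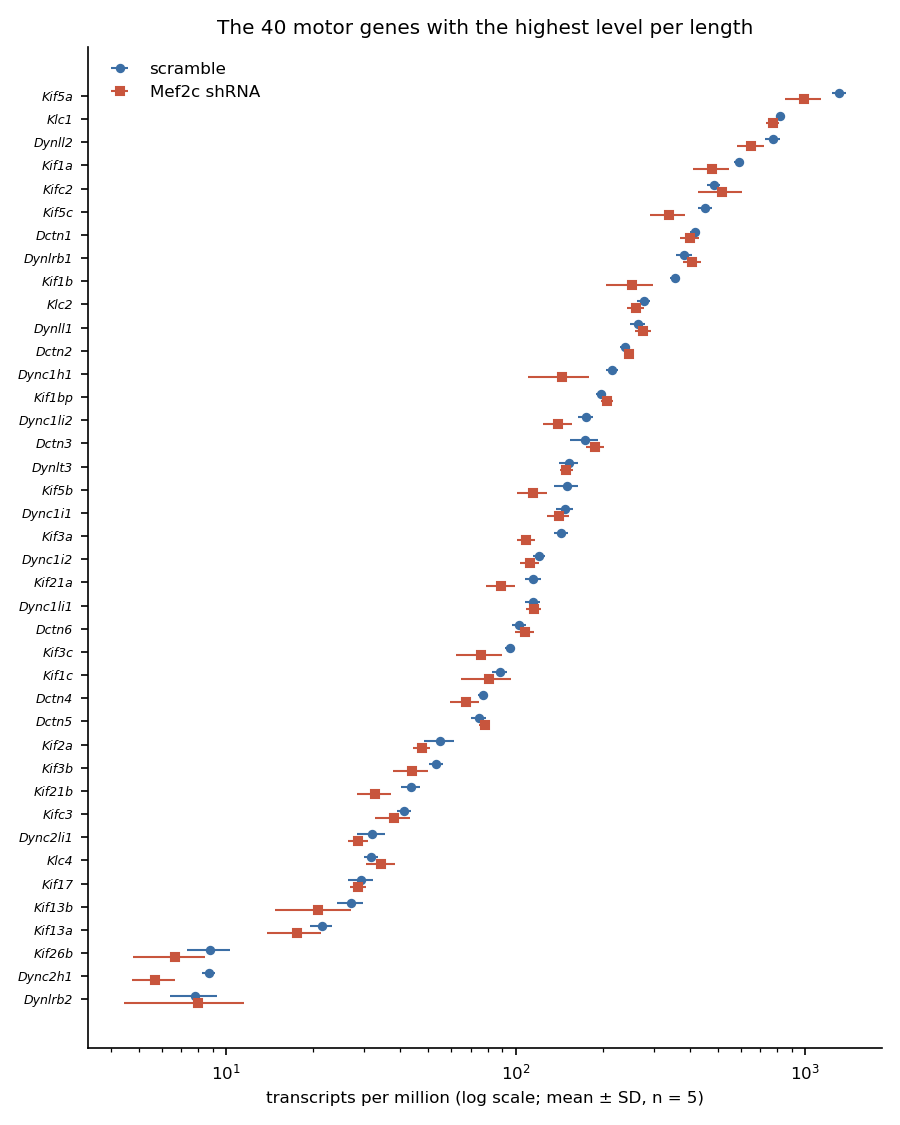
Level of the 40 motor genes highest per transcript length, in counts per kilobase of transcript scaled to a common sum (TPM) on a log axis, as mean ± SD of 5 libraries per group (circles scramble, squares Mef2c shRNA). Kif5a led with 1314 ± 70.3 in the scramble libraries, and Dynlrb2, the last shown, stood at 7.84 ± 1.45.

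To compare genes with each other, counts were divided by the length of the longest transcript and scaled to a common sum per library (TPM). In the scramble libraries Kif5a was the most abundant motor gene, at 1314 ± 70.3 TPM (SD, n = 5). It was followed by the light chain gene Klc1 (821 ± 14.7), the dynein light chain gene Dynll2 (775 ± 45.8), the axonal vesicle kinesin Kif1a (592 ± 24.1) and the C-terminal kinesin Kifc2 (485 ± 24.9). Kif5c, Dctn1, Dynlrb1, Kif1b and Klc2 completed the 10 highest. Dividing by the longest coding sequence instead kept 8 of these 10 among the highest. The mitotic kinesins lay at the other end: Kif11, Kif15, Kif18a, Kif20a, Kif20b and Kif23, which act in the spindle and at cell division, each averaged under 2 TPM in the scramble libraries. Of the 5 members too low to be tested, Kif2c, Kif14 and Kif18b are mitotic motors as well. Kif12 is another kinesin, and Kif28, like Kif14, belongs to the kinesin-3 genes. The highest value of any of the 5 in a library was 1.44 CPM (Kif18b). Markers of proliferating cells were likewise low, with a summed level of 14.2 to 19.96 CPM in the scramble and 10.02 to 25.7 CPM in the knockdown libraries.

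The mRNA level of all 3 kinesin-1 heavy chains fell in the knockdown libraries. Where 2 sets of 5 values are given, the scramble libraries come first, and libraries follow the order 1 to 5. Kif5a, the neuronal form that moves neurofilaments and other slow cargo (chromosome 10, 127225696 to 127263348, GRCm38), stood at 2533, 2372, 2557, 2741 and 2491 CPM in scramble libraries 1 to 5 and at 2264, 1702, 1786, 2241 and 2256 CPM in the libraries labelled knockdown 1 to 5. The groups did not overlap, and knockdown libraries 2 and 3 were lowest. The difference was -0.31 ± 0.087 SE on the log2 scale (edgeR adjusted p = 0.0361). Kif5c, a second neuron-enriched form (chromosome 2, 49619298 to 49774778), measured 921, 934, 902, 997 and 1003 CPM with scramble and 873, 729, 811, 694 and 684 CPM with Mef2c shRNA. Again no knockdown library reached the lowest scramble library, with a log2 difference of -0.33 ± 0.074 SE (edgeR adjusted p = 0.0144). Kif5b, the form found in most tissues, went from 285, 311, 242, 286 and 266 to 219, 224, 241, 254 and 195 CPM in the same library order. Knockdown libraries 1 and 2 and the library labelled knockdown 5 lay well below all scramble libraries, knockdown library 3 just below them, and knockdown library 4 above scramble library 3. The log2 difference was -0.29 ± 0.081 SE (edgeR adjusted p = 0.0328).

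The light chains, which couple the kinesin-1 heavy chains to cargo, gave 0 calls among 4 genes. Klc1 read 629.8, 609, 643, 635 and 638 CPM in the scramble and 646, 612, 617, 604 and 701 CPM in the knockdown libraries, with the library labelled knockdown 5 highest of all. The corresponding values of Klc2 were 265, 247, 279, 280.1 and 278 and 269, 263, 244, 269.9 and 311 CPM. In both genes the groups overlapped. In this fit, which has no length term, the log2 differences were 0.01 ± 0.057 SE for Klc1 and 0.01 ± 0.068 SE for Klc2. Klc4 (0.21 ± 0.080 SE) and the little expressed Klc3 (0.47 ± 0.26 SE) had positive values that did not pass (edgeR adjusted p = 0.0941 and 0.252).

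Among the kinesin-2 genes, Kif3a fell while its partners did not pass. Kif3a pairs with Kif3b or Kif3c into motors that serve cilia and axonal vesicles (chromosome 11, 53567379 to 53601967). It measured 137, 149, 131, 143 and 137 CPM in the scramble libraries and 120.4, 109, 113, 103 and 118 CPM in the knockdown libraries. The highest knockdown library, number 1, lay below the lowest scramble library, number 3. Kif3a differed by -0.31 ± 0.060 SE on the log2 scale (edgeR adjusted p = 0.00729). Kif3b, at 96.0, 93.1, 84.1, 93.0 and 94.0 and 95.0, 78.1, 75.2, 78.1 and 76.3 CPM, had 4 of 5 knockdown libraries below the scramble range, and knockdown library 1 within it (-0.19 ± 0.071 SE, edgeR adjusted p = 0.0892). Kif3c, at 197, 187, 205, 202 and 205 and 201, 166, 188, 151 and 140.0 CPM, overlapped in knockdown libraries 1 and 3 (-0.24 ± 0.088 SE, edgeR adjusted p = 0.0893). Exons of other genes cover 40.7% of the exon bases of Kif3c and 0% of those of Kif3a, and whether counting used strand is not stated. Kif17, a homodimeric kinesin-2 known for carrying NMDA receptor vesicles in dendrites, had a log2 fold change of 0.06 ± 0.082 SE.

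Promoter sequences were matched by symbol in RefSeq (GRCm38.p6), which held 57 windows of 300 bases, from 250 before to 50 after a start, for 50 of the 68 genes. Both strands were searched for motif letters, beside all 32851 windows of that length. The MEF2 consensus was in 2 of 57 member windows (3.51%, in Kif2c and Kif27) and in 3.19% of all windows, and it was in none of the windows of the 6 genes that fell and had one. The SP1 box GGGCGG was in 66.7% of member windows and 35.7% of all, the CCAAT box in 43.9% and 37.4%, the CRE TGACGTCA in 8.77% and 1.79%, the NRF1 site (GCGCA and GCGC with any 1 base between) in 12.3% and 4.6%, and the TATA box TATAAA in 8.77% and 13.6%. A match describes letters and not binding. The windows of Kif3a and of Kif5c, 2 genes that were lower in all 5 knockdown than in all 5 scramble libraries, are shown because their letters differ: SP1, CCAAT and NRF1 matches in the former, where the CCAAT and SP1 matches overlap, and CRE, SP1 and TATA matches in the latter. Capitals mark these matches, and both windows are on the plus strand, chr11:53567119-53567418 for Kif3a and chr2:49619036-49619335 for Kif5c. The TATA match of Kif5c and the CCAAT and NRF1 matches of Kif3a are on the opposite strand. That TATA match lies near the upstream end of its window, far from the start.
Kif3a: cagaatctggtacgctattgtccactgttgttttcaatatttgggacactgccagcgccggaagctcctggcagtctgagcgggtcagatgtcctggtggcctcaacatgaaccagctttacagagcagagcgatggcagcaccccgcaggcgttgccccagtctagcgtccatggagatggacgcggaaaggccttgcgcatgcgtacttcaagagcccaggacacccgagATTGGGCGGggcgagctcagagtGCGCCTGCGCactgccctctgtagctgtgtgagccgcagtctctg
Kif5c: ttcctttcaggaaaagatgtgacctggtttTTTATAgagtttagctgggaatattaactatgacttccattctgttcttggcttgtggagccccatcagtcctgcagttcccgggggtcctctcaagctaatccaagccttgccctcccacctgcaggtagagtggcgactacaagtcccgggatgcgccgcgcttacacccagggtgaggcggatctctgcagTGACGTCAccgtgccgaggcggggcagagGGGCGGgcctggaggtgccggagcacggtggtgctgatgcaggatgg

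Of 8 kinesin-3 genes 6 were tested, of which Kif1b fell and the other 5 had negative values that did not pass. Kif1b, whose isoforms carry mitochondria and synaptic vesicle precursors (chromosome 4, 149176319 to 149307693), read 1066, 1142, 1104, 1112 and 1151 CPM with scramble and 1032, 741, 859, 842 and 725 CPM with Mef2c shRNA. Knockdown library 1 lay just under the scramble range and the other 4 well under it, which gave a log2 difference of -0.41 ± 0.085 SE (edgeR adjusted p = 0.0105). Kif1a, the main carrier of synaptic vesicle precursors, stood at 1418, 1468, 1496, 1548 and 1531 and 1505, 1093, 1268, 1220.3 and 1309 CPM. In knockdown library 1 it lay inside the scramble range and in the other 4 below it, and the difference missed the threshold (-0.22 ± 0.076 SE, edgeR adjusted p = 0.0694). Kif13a, Kif13b, Kif16b and Kif1c, motors of endosomes and Golgi-derived vesicles, had log2 fold changes between -0.29 (Kif13b) and -0.04 (Kif1c).

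The kinesin-4 genes Kif21a and Kif21b, whose products slow microtubule growth and travel in axons and dendrites, both fell. Kif21a measured 217, 246, 232, 213 and 229 CPM in the scramble and 209.9, 181, 193, 181 and 171 CPM in the knockdown libraries (-0.28 ± 0.066 SE, edgeR adjusted p = 0.0176). Kif21b measured 113, 125, 125, 135 and 119 CPM and 109, 79.8, 100.4, 105 and 100.7 CPM (-0.32 ± 0.081 SE, edgeR adjusted p = 0.0245). In both genes knockdown library 1 came within a few CPM of the scramble range without entering it. Kif27, a relative of the cilium kinesin Kif7, had the most negative value of the 63 members, -0.62 ± 0.24 SE, and did not pass (edgeR adjusted p = 0.0995). Kif4, a chromosome-associated motor (-0.44 ± 0.32 SE), and Kif7, a regulator of Hedgehog signalling in cilia (0.02 ± 0.25 SE), did not pass either. Kif27 stood at 5.45, 4.795, 4.18, 5.16 and 4.47 CPM with scramble and 5.65, 2.66, 2.51, 2.51 and 2.36 CPM with Mef2c shRNA, where only knockdown library 1 reached the scramble level. That library also had the highest score of ependymal and motile cilia markers of the 5 knockdown libraries, 0.61 against at most -0.13 in the others. Scramble library 3, with the lowest Kif27 level of its group, had a score of 0.59, and scramble library 2, at 4.795 CPM, had -0.21. The part of ciliated cells in the Kif27 values was not tested.

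Outside these families no kinesin passed. The 14 mitotic and other kinesins tested ranged from -0.44 ± 0.20 SE (Kif26a) to 0.20 ± 0.34 SE (Kif11), and most lay under 10 CPM. Kif2a, which takes tubulin off microtubule ends and prunes axon branches, was the most abundant of the mitotic and other kinesins per length and stood at 81.3, 104, 81.2, 88.0 and 90.6 CPM and 80.7, 86.4, 87.1, 80.2 and 78.1 CPM, with overlapping groups (-0.11 ± 0.073 SE). Kifc2, a neuronal C-terminal kinesin that moves towards minus ends, stood at 493, 433, 489, 498 and 482 CPM and 470.1, 475, 504, 532 and 752 CPM. The library labelled knockdown 5 was far above the rest, and the log2 fold change of 0.19 ± 0.11 SE did not pass (edgeR adjusted p = 0.287). Kifc1, a spindle motor, was higher in all 5 knockdown libraries at 1.66 and 2.41 CPM on average, without passing (0.53 ± 0.21 SE, edgeR adjusted p = 0.101), and it shares a close copy, Kifc5b (-0.26 ± 0.18 SE), so the split of reads between them is uncertain. The fourth C-terminal kinesin, Kifc3, differed by -0.02 ± 0.078 SE, and exons of other genes cover 27.5% of its exon bases. Kif1bp stood at 158 ± 4.90 CPM and 178 ± 12.03 CPM (SD, n = 5), higher in all 5 knockdown libraries, and missed the threshold (0.17 ± 0.059 SE, edgeR adjusted p = 0.0724).

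In cytoplasmic dynein 1 the heavy chain and 1 of the light intermediate chains fell, and the intermediate chains did not pass. Dync1h1 encodes the motor subunit itself (chromosome 12, 110601452 to 110666945). In scramble libraries 1 to 5 it stood at 884, 944, 959, 957 and 1004 CPM, and in the libraries labelled knockdown 1 to 5 at 921, 599.6, 642, 628 and 599 CPM. Knockdown libraries 2 to 4 and the library labelled knockdown 5 were far below the scramble range and knockdown library 1 was inside it. The resulting log2 difference was -0.49 ± 0.11 SE (edgeR adjusted p = 0.0142). Dync1li2, which links dynein to its cargo adaptors (chromosome 8, 104417680 to 104443047), stood at 228, 254, 248, 263 and 248 CPM and 227, 191, 216, 230.2 and 196 CPM, where knockdown library 4 entered the scramble range and the other 4 stayed below it (-0.23 ± 0.067 SE, edgeR adjusted p = 0.0415). Its alternative Dync1li1 stood at 84.2, 97.8, 91.6, 91.6 and 91.5 CPM and 98.5, 102, 97.0, 100.2 and 93.5 CPM, a small positive value that did not pass (0.11 ± 0.056 SE, edgeR adjusted p = 0.218). The intermediate chains, which bind dynactin, overlapped between groups. Dync1i1 read 117, 121, 137, 116 and 127 CPM and 134, 120.0, 120.1, 113 and 141 CPM (0.02 ± 0.072 SE), and Dync1i2 read 162, 178, 173, 158 and 167 CPM and 141, 169, 168, 181 and 172 CPM (-0.01 ± 0.068 SE).

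Dynein 2 is the motor of retrograde transport inside cilia. Its heavy chain gene Dync2h1 (chromosome 9, 6928503 to 7184446) stood at 36.6, 39.0, 36.5, 40.1 and 38.2 CPM in the scramble and 31.7, 22.4, 25.0, 23.2 and 31.0 CPM in the knockdown libraries, without overlap. Of the 10 genes that fell it had the largest log2 difference, -0.52 ± 0.09954 SE (edgeR adjusted p = 0.00677). The light intermediate chain gene Dync2li1, at 13.5, 15.2, 11.8, 11.99 and 13.7 CPM and 13.2, 12.7, 11.1, 13.0 and 13.2 CPM, overlapped (-0.06 ± 0.10 SE).

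None of 9 dynein light chain genes and 6 dynactin genes passed. Dynll1 and Dynll2 encode near-identical light chains that also act as dimerization hubs outside dynein. Dynll1 stood at 197, 178, 193, 169.7 and 171 CPM and 185, 225, 202, 187 and 217 CPM (0.16 ± 0.071 SE), and Dynll2 at 609.6, 528, 585, 601 and 621 CPM and 599, 501, 497, 525 and 516 CPM (-0.16 ± 0.068 SE). In Dynll2, 4 of 5 knockdown libraries lay below all scramble libraries and knockdown library 1 lay among the upper ones. The roadblock chain genes Dynlrb1 (0.20 ± 0.079 SE) and Dynlrb2 (0.10 ± 0.29 SE) and Dynlt3 (0.07 ± 0.067 SE) had positive values, and the 4 Dynlt1 copies, Dynlt1a, Dynlt1b, Dynlt1c and Dynlt1f, averaged 1.21 to 4.43 CPM in the scramble libraries, with reads that cannot be placed with certainty among copies so alike. Dctn1, the large dynactin subunit that binds microtubules, stood at 563, 512, 572, 547 and 574 CPM and 612, 555, 553, 542 and 573 CPM (0.03 ± 0.058 SE). Dctn2, which joins the dynactin shoulder to the filament, stood at 185, 179, 201, 187 and 186 CPM and 195, 212, 202, 196 and 232 CPM (0.15 ± 0.062 SE). The other 4 dynactin genes ranged from -0.10 (Dctn4) to 0.22 (Dctn3) on the log2 scale.

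**Figure D2:**
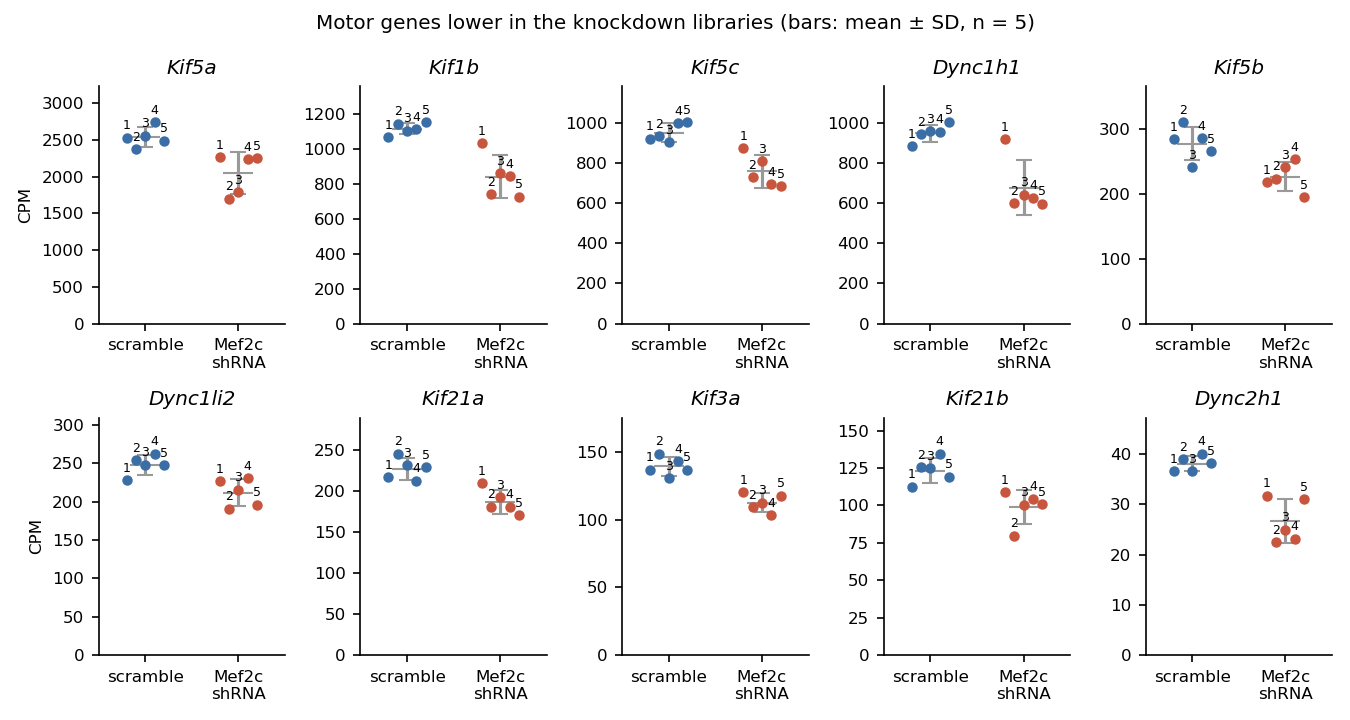
CPM of the 10 motor genes that fell, in each library (points, numbered by replicate; blue scramble, red Mef2c shRNA), with mean ± SD of 5 libraries. In 7 of the 10 genes every knockdown library lies below every scramble library, and knockdown library 1 lies highest of the knockdown libraries in Kif5a, Kif1b, Kif5c, Dync1h1, Kif21a, Kif3a, Kif21b and Dync2h1.

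**Figure D3:**
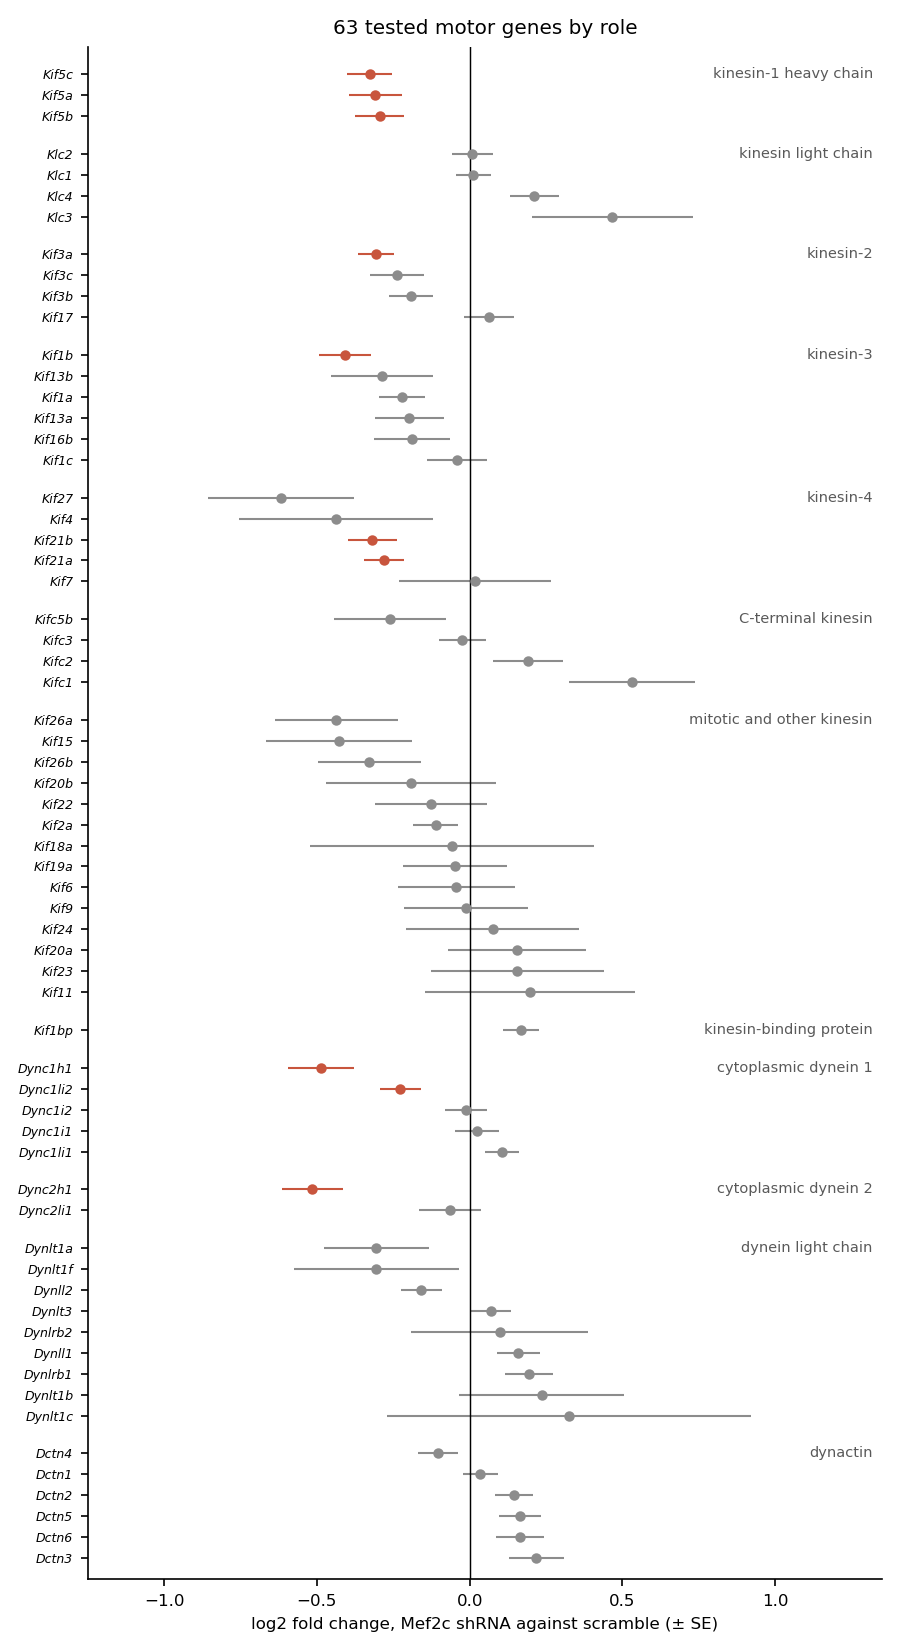
Log2 fold change of Mef2c shRNA against scramble ± SE for the 63 tested motor genes, grouped by role; red points passed an edgeR adjusted p of 0.05. In this fit, which has no length term, the 3 kinesin-1 heavy chains lie near -0.3, and Klc1 and Klc2 lie at 0.01 and 0.01.

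The calls depended on single libraries to differing degrees. Kif1b, Dync1h1, Kif3a and Dync2h1 stayed past the threshold whichever of the 10 libraries was left out. Kif5c did not pass without scramble library 5 (edgeR adjusted p = 0.0525). Kif21a did not pass without scramble library 2 (0.0564), scramble library 5 (0.0535) or knockdown library 2 (0.0534, all edgeR adjusted p). For Kif21b this held without scramble library 2, 4 or 5 (edgeR adjusted p = 0.0667, 0.0702 and 0.0548). Kif5b missed it without scramble libraries 1, 2, 4 or 5 or knockdown library 2, with an edgeR adjusted p of at most 0.0959. Kif5a missed it without any 1 of the 5 scramble libraries or without knockdown library 2 or 3, with at most 0.0941. Dync1li2 missed it without scramble libraries 2, 3, 4 or 5, knockdown libraries 2 or 3 or the library labelled knockdown 5, with at most 0.109. Leaving out knockdown library 1, in which many members stayed near the scramble level, raised the number of members that fell from 10 to 16 (all genes from 7.61% to 12.2%), the additional 6 being Kif1a, Kif3b, Kif3c, Kif26a, Kif27 and Dynll2, and 4 then rose (Dctn3, Dctn6, Dynlrb1 and Kif1bp; all genes from 4.66% to 10.5%). Without the library labelled knockdown 5, whose Mef2c level went against its label, 9 fell, all of the 10 but Dync1li2, beside 7.21% of all genes. Knockdown libraries 2, 3 and 4 had the highest microglia scores of the 10 libraries (0.50 to 0.83, against -0.51 to 0.05 in the other 7). They also had the highest astrocyte scores (0.26 to 0.39, against at most 0.04) and the lowest choroid plexus scores (-2.41 to -1.97, against at least -1.56). Which of these scores the following fits reflect was not tested. Without these 3, in a fit of 5 libraries against 2, no member and no other gene passed edgeR's adjusted threshold. In that fit 10 members were lower at an unadjusted p under 0.05 (10.2% of all genes). With the microglia score as a covariate again none passed, and 13 were lower at an unadjusted p under 0.05 (8.96% of all genes). Kif5b, Kif5c, Kif1b, Kif21a and Dync1li2 kept log2 fold changes near or beyond their main values, namely -0.38, -0.31, -0.38, -0.31 and -0.24 with the covariate and -0.43, -0.30, -0.35, -0.26 and -0.24 without the 3 libraries. Those of Kif5a, Dync1h1, Kif3a, Kif21b and Dync2h1 were smaller in both, at -0.12, -0.36, -0.21, -0.25 and -0.26 with the covariate and -0.17, -0.33, -0.23, -0.24 and -0.29 without the 3 libraries.

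The members that fell had long transcripts. Their longest annotated transcript had a median length of 6.65 kb, against 3.45 kb for the 53 members that were tested and not called. Across the 63 members the Spearman correlation between log2 fold change and transcript length was -0.73, given as a description, since all members share the same 10 libraries. Of 7 members of 8 kb and over, 4 fell, or 57.1%, and of all 904 tested genes of that length 52.7% did. Between 4 and 8 kb, 5 of 23 members (21.7%) and 10.7% of all genes fell, and between 2 and 4 kb 1 of 26 members (3.85%, Kif3a) and 1.43% of all genes. Under 2 kb, 0 of 7 members and 0.55% of all genes fell. The median log2 fold change of members and of all genes was -0.33 and -0.34 in the longest class, and 0.20 and 0.20 in the shortest.

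With per-library offsets for transcript length and GC content in the model, 2 of the 63 members fell, where 0.959% of all genes did, and 0 rose, where 0.695% did. One was Kif3a, whose transcript is 3.16 kb long, which differed by -0.32 ± 0.056 SE on the log2 scale (edgeR adjusted p = 0.0158), close to its value without offsets. The adjusted p of Kif3a ranged from 4.21e-05 to 0.246 over its alternatives. The other was Dynll2, which moved from -0.16 to -0.29 ± 0.066 SE (edgeR adjusted p = 0.0472). The other 9 members that had fallen shrank, Dync1h1 to -0.12, Dync2h1 to -0.06, Kif1b to -0.05, Kif5a to -0.17, Kif5b to -0.10, Kif5c to -0.09, Kif21a to -0.06, Kif21b to -0.07 and Dync1li2 to -0.13, and did not pass (edgeR adjusted p from 0.201 to 0.811). The light chain genes moved the other way, Klc1 from 0.01 to -0.13 ± 0.048 SE and Klc2 from 0.01 to -0.12 ± 0.051 SE. Neither passed (edgeR adjusted p = 0.187 and 0.229), and with the offsets their values lay close to those of the kinesin-1 heavy chains. The offsets were fitted to these same libraries and take up any difference between the groups that follows length or GC content, whatever its source. Over all genes tested the Spearman correlation of log2 fold change with length went from -0.56 without offsets to 0.01 with them. The cause of the length trend was not tested.

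**Figure D4:**
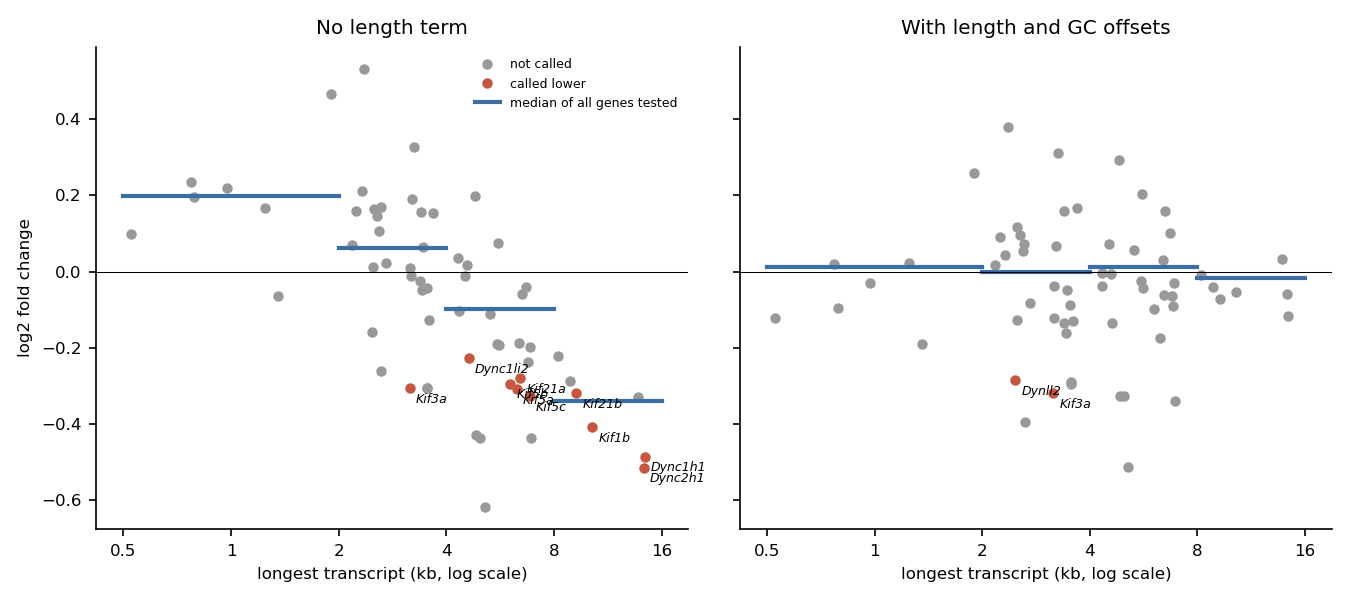
Log2 fold change of the 63 tested motor genes against the length of their longest transcript (log axis), without a length term (left) and with length and GC offsets (right); red points passed an edgeR adjusted p of 0.05, and blue lines are medians of all genes tested in 4 length classes. On the left the points follow the blue lines downwards, and on the right Kif3a and Dynll2 are the genes called.

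Related members were compared in pairs by the log2 ratio of their counts in each library, which needs no scaling to depth. The pair Dctn1 and Dctn2 encodes different subunits of dynactin and not alternatives of each other. Across 11 pairs, 2 differed between groups after adjustment over the pairs by two-sided exact permutation of the 10 libraries, which can give no p below 0.00794. Dync1li1 over Dync1li2 rose from -1.44 ± 0.05 to -1.10 ± 0.13 (mean ± SD, n = 5 each, exact p = 0.00794, 0.0437 after Benjamini-Hochberg adjustment). In scramble libraries 1 to 5 this ratio was -1.44, -1.38, -1.44, -1.52 and -1.44, and in the libraries labelled knockdown 1 to 5 -1.20, -0.90, -1.15, -1.20 and -1.07, so every knockdown library favoured Dync1li1 more than any scramble library. Kif1a over Kif1b rose from 0.42 ± 0.04 to 0.61 ± 0.14 (exact p = 0.00794, adjusted 0.0437), with scramble libraries at 0.36 to 0.48 and knockdown libraries at 0.53 to 0.85. With the length and GC offsets these differences were 0.19 (adjusted exact p = 0.0873) and 0.04 (0.897) and no longer passed. The transcripts of the falling partners are the longer ones, 4.63 against 2.60 kb and 10.2 against 8.21 kb.

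The ratio Dynll1 over Dynll2 was -1.70 ± 0.13 with scramble and -1.38 ± 0.22 with Mef2c shRNA, which did not pass (exact p = 0.0397, adjusted 0.146). Without knockdown library 1 the difference was 0.40 (adjusted exact p = 0.0218). Dctn1 over Dctn2 differed by -0.11 (adjusted exact p = 0.284), and by -0.16 without knockdown library 1 (0.0218). The 3 kinesin-1 heavy chains, which all fell, showed differences of -0.02 for Kif5a over Kif5b, -0.04 for Kif5c over Kif5b and 0.01 for Kif5a over Kif5c, each smaller than the SD within either group (exact p = 0.865, 0.746 and 0.897). Klc1 over Klc2 differed by 0.00, Kif21a over Kif21b by 0.04, Kif3c over Kif3b by -0.05 and Dync1i1 over Dync1i2 by 0.04, none of which passed (exact p from 0.54 to 0.929). With 5 libraries a group, a p above the threshold does not show that the ratios were equal.

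**Figure D5:**
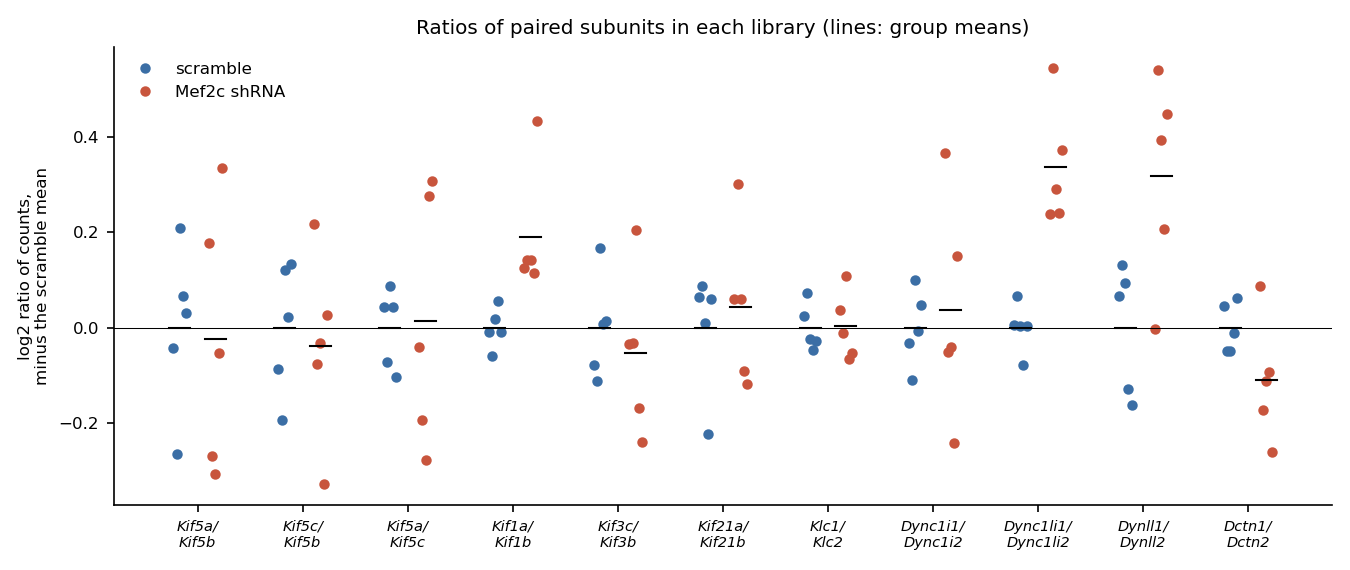
Log2 ratio of counts of paired motor genes in each library, minus the mean of the 5 scramble libraries (blue scramble, red Mef2c shRNA, black lines group means). All 5 knockdown libraries lie above all 5 scramble libraries for Kif1a/Kif1b and Dync1li1/Dync1li2, and the 3 Kif5 ratios scatter around 0 in both groups.

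The following 3 lists of genes that work with the motors were read from the same test. Beside them, 7.61% of all genes tested fell and 4.66% rose, with a median log2 fold change of 0.02. With length and GC offsets 0.959% of all genes fell and 0.695% rose. Of 45 tested genes for transport adaptors and regulators, 9 fell and 3 rose (Nde1, Capzb and Arl8a), with a median log2 fold change of -0.03. The 4 with the smallest p all fell: Spag9, a scaffold that binds kinesin-1 and dynein (-0.37 ± 0.066 SE), Nin, a centrosomal dynein adaptor (-0.42 ± 0.075 SE), Htt, the huntingtin gene (-0.50 ± 0.091 SE), and Hook3, a dynein activator (-0.52 ± 0.096 SE). These are long transcripts, of 7.34 to 13.2 kb, and with length and GC offsets the list had 1 call, Clstn2, a calsyntenin (-0.46 ± 0.074 SE, edgeR adjusted p = 0.0119). Of 16 tubulin genes, 0 fell and 1, the gamma-tubulin gene Tubg1, rose (0.30 ± 0.092 SE, edgeR adjusted p = 0.045), with a median of 0.12. Of 61 microtubule-associated and tubulin-modifying genes, 14 fell and 2 rose (Map1s and Mapre3), with a median of -0.08. Dst (-0.62 ± 0.084 SE) and Macf1 (-0.60 ± 0.085 SE), giant linkers of microtubules to actin, led this list, followed by the neuronal microtubule-associated genes Map2 (-0.55 ± 0.081 SE) and Map1b (-0.52 ± 0.086 SE). With the offsets Map2 still fell (-0.35 ± 0.058 SE, edgeR adjusted p = 0.0138) and Map1s, a relative of Map1b, rose (0.25 ± 0.057 SE, edgeR adjusted p = 0.0467). With the microglia score as a covariate none of the genes of the 3 lists passed, nor did any other gene.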

How the data were processed

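RNA-seq of 10 CA3 libraries, 5 per group, was analysed, with groups and replicate numbers from the titles. Per the submitters' processing notes, the authors used HISAT2 and featureCounts with mm10; the sources used here give no version, annotation or strand setting. Each of the 10 deposited files holds counts as the authors made them, not normalized, for 18453 Ensembl identifiers (GENCODE M21 holds 18421 of them). No pair of libraries of a group agreed within sampling noise (lowest chi-square 3.85 per degree of freedom). Counting error is largest in the members near 1 CPM.

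Counts were filtered with filterByExpr, TMM-normalized and tested by robust quasi-likelihood in edgeR 4.0.16 (R 4.3.3); SE is the log2 fold change divided by the square root of F. Ratios used counts plus 0.5. Length and GC offsets were natural splines (5 degrees of freedom each) fitted per library to log2 counts minus the gene's mean, with the longest GENCODE transcript. Scripts were tested on simulated data. Alternatives were 2 normalizations, 2 filters, DESeq2 1.42.0, limma-voom (limma 3.58.1), a replicate block, the offsets, marker-score covariates, 1 surrogate variable (sva 3.50.0), other thresholds and leaving out libraries; leaving out sets of libraries was added after seeing the data. Members and lists were chosen with earlier results of these data known. The rule for named genes takes Mef2c, any member, per-library values for called members, the most abundant member of each role and the paired members, and up to 4 genes by smallest p in each list. Clstn2, Tubg1 and Map1s were named after their values were seen where the rule did not take them.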

Additional observations from a re-analysis of the deposited data

Results flagged for a closer look

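In 150 groups of 5 libraries (Mef2c, the 63 tested members and the 11 ratios, in both groups), 12 held 1 library whose gap to the nearest of the others was more than 0.71 of the whole range. Chance gives about 1 in 20 groups. Knockdown library 1 stood above the other knockdown libraries in Dync1h1 (921 CPM, others 599 to 642), Dynll2 (599, others 497 to 525), Kif3b (95.0, others 75.2 to 78.1) and Kif27 (5.65, others 2.36 to 2.66). The library labelled knockdown 5 stood apart upwards in Kifc2 (752 CPM, others 470.1 to 532) and in the log2 ratio of Kif1a over Kif1b (0.85, others 0.53 to 0.56), and downwards in Dctn4 (81.6 CPM, others 96.2 to 102). Knockdown library 3 was low in Dync2li1 (11.1 CPM, others 12.7 to 13.2). Among the scramble libraries, number 4 was high in Mef2c (312 CPM, others 166 to 198) and low in the log2 ratio of Kif21a over Kif21b (0.66, others 0.89 to 0.97). Scramble library 2 was low in Kifc2 (433 CPM, others 482 to 498), and scramble library 3 in Kif3b (84.1 CPM, others 93.0 to 96.0).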

How the results depend on the processing

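In the main test the counts of called genes were 0 (motor genes higher), 10 (motor genes lower), 671 (all genes higher), 1095 (all genes lower), 12 (adaptors), 1 (tubulins) and 16 (microtubule-associated genes). Values that moved by over 1.5 times follow, and counts not named stayed within that bound. At an adjusted p under 0.1 the counts were 2 (motor genes higher), 1457 (all genes higher), 1649 (all genes lower) and 2 (tubulins). At an adjusted p under 0.01 the counts were 2 (motor genes lower), 43 (all genes higher), 336 (all genes lower), 6 (adaptors), 0 (tubulins) and 6 (microtubule-associated genes). With DESeq2 the counts were 1 (motor genes higher), 1167 (all genes higher) and 2 (tubulins). With limma-voom the counts were 3 (motor genes higher), 16 (motor genes lower), 1571 (all genes higher), 1822 (all genes lower), 2 (tubulins) and 25 (microtubule-associated genes). With length and GC offsets the counts were 2 (motor genes lower), 100 (all genes higher), 138 (all genes lower), 1 (adaptors), 0 (tubulins) and 2 (microtubule-associated genes). With these offsets and the replicate block the counts were 2 (motor genes lower), 110 (all genes higher), 97 (all genes lower), 1 (adaptors), 0 (tubulins) and 1 (microtubule-associated genes). With the cortical score as covariate the counts were 1 (motor genes higher), 1122 (all genes higher), 2 (tubulins) and 25 (microtubule-associated genes). With 1 surrogate variable the counts were 1 (motor genes higher), 6 (motor genes lower), 185 (all genes higher), 525 (all genes lower), 7 (adaptors), 0 (tubulins) and 8 (microtubule-associated genes). Without scramble library 4 and the library labelled knockdown 5 the counts were 5 (motor genes lower), 313 (all genes higher), 716 (all genes lower) and 0 (tubulins). With the microglia score as covariate, and without knockdown libraries 2, 3 and 4, every one of these counts was 0, while all 10 motor genes that had fallen kept negative log2 fold changes (-0.38 to -0.12 and -0.43 to -0.17). Leaving out 1 library at a time gave ranges of 0 to 4 (motor genes higher), 4 to 16 (motor genes lower), 130 to 1529 (all genes higher), 501 to 1776 (all genes lower), 7 to 15 (adaptors), 0 to 2 (tubulins) and 9 to 22 (microtubule-associated genes). With the replicate block the counts were 9 (motor genes lower, without Dync1li2), 0 (motor genes higher), 841 (all genes lower), 472 (all genes higher) and 0 (tubulins). Same-numbered libraries correlated in their deviations from the group means by -0.11 to 0.40 over the 5 numbers and not every library correlated best with its own number, so the numbers were not taken to pair the libraries. With the offsets the log2 ratio differences of Dync1li1/Dync1li2 and Kif1a/Kif1b were 0.19 and 0.043 and no longer passed. Leaving out 1 library moved ratio differences over 0.29 to 0.36 for Dync1li1/Dync1li2, 0.13 to 0.21 for Kif1a/Kif1b, 0.26 to 0.4 for Dynll1/Dynll2 and -0.16 to -0.072 for Dctn1/Dctn2. For Mef2c and the 63 members, 1536 alternative values were computed, of which 74 lost and 30 gained the threshold, 0 reversed with either value past it, and 94 changed sign with neither value past it. Of the 10 motor genes most abundant per length, 8 remained when dividing by coding sequence and 8 by the mean transcript length. The causes of these shifts were not tested. Counting error is largest in the members near 1 CPM.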
